A study of Homo sapiens with 8 samples.

Results

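The genes described here build the junctions and the polarity of epithelial cells: the membrane and plaque proteins of tight junctions, the polarity complexes, the cadherins and plaque proteins of desmosomes, and a few surface and sorting genes that mark epithelium. They form a list of 33 named genes, chosen with earlier results of these data known. Each gene was read from the probe set annotated to its symbol alone and, where there were several, from the brightest of them, by its mean on the 8 arrays. This gave 32 of the 33 genes, out of 19775 genes with a probe set of their own. F11R, a junctional adhesion molecule, was not analysed here.

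The study used A549 cells, an established human lung adenocarcinoma line, and induced an epithelial-mesenchymal transition (EMT) with 2 cytokines, TNF and TGFβ. There were 4 groups of 2 arrays: treated spheroids (3D) and control spheroids, treated monolayers (2D) and control monolayers. Treated cultures received TNF at 10 ng/mL together with TGFβ at 2 ng/mL. They were given in 2 rounds, each of 48 h, and the methods describe the controls as given vehicle, so that the control groups carried no cytokine and every group was the same cell line. Because a single cell line was used and the sources differ on whether the 2 arrays of a group are technical duplicates or biological replicates, the p-values measure only the spread between these arrays.

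In an epithelium, tight junctions seal the space between neighbouring cells at their apical edge. Claudins and occludin form the strands, and plaque proteins such as ZO-1 tie them to actin. Desmosomes join the keratin filaments of neighbours through desmosomal cadherins and a plaque of plakoglobin, plakophilins and desmoplakin. The Crumbs, Par and Scribble complexes set where the apical surface ends and the lateral membrane begins. Loss of these structures is a textbook feature of EMT, in which transcriptional repressors of the SNAI and ZEB families bind E-box letters in promoters of epithelial genes.

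Values are log2 expression, so that 1 unit is a 2-fold difference. Levels of different genes come from different probe sets and are not compared with one another. The array medians were 2.43 to 2.50 and the lowest value on each array was 2.23. The epithelial markers KRT8, KRT18, KRT19 and CDH1 lay between 6.79 and 15.10 on all arrays. limma called 3 of these 4 lower in treated than in control spheroids, KRT8 (−1.05, adjusted p = 0.0361), KRT18 (−0.57, adjusted p = 0.00673) and CDH1 (−0.91, adjusted p = 0.0155), and KRT19 had a value of −0.74 (limma adjusted p = 0.0638). Between control spheroids and control monolayers KRT18 was called lower (−0.40) and KRT19 higher (1.42). The part of these shifts in the results was not tested. Of 12 markers of leukocytes, endothelium, fibroblasts and erythroid cells, 10 were measured and 5 (PTPRC, CD3E, CDH5, VWF and DCN) lay below the array median in all 4 groups. The highest of the others reached 9.69, for CD14, which was also lower in treated than in control spheroids (log2 fold-change −2.86, limma adjusted p = 0.0477), and its part in the results was not tested. Of the 32 genes, 29 exceeded the array median on 2 or more arrays. PKP1, a plakophilin of stratified epithelium, and RAB25, a GTPase of apical recycling, stayed at the lowest value, 2.23, on all 8 arrays.

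The promoters of 4 members are shown because they carry the letters that EMT repressors are known to bind, or lack them. They are the 250 bases before the RefSeq start (GRCh38.p14), 5′ to 3′ on the strand of the gene, with the E-box letters CAGGTG, or CACCTG on the other strand, in capitals. OCLN and TJP3 were lower in treated spheroids, CLDN1 was higher, and CRB3 was not called. The windows are chr5:69492297-69492546 (+ strand) for OCLN, chr19:3721487-3721736 (+ strand) for TJP3, chr3:190322447-190322696 (− strand) for CLDN1 and chr19:6464021-6464270 (+ strand) for CRB3.
OCLN: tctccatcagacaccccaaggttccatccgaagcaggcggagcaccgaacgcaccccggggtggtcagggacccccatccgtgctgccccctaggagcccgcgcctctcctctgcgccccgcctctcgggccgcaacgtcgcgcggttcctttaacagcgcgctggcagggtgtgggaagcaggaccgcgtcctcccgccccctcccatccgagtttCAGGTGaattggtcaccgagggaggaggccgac
TJP3: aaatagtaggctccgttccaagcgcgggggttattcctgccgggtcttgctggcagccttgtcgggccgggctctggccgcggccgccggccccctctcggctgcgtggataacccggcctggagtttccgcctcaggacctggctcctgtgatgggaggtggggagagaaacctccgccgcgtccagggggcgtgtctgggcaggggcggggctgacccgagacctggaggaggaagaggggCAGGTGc
CLDN1: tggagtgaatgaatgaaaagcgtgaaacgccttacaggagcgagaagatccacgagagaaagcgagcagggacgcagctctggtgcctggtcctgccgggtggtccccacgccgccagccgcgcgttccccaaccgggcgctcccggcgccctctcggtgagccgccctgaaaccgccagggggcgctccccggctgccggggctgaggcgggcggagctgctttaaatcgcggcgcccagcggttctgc
CRB3: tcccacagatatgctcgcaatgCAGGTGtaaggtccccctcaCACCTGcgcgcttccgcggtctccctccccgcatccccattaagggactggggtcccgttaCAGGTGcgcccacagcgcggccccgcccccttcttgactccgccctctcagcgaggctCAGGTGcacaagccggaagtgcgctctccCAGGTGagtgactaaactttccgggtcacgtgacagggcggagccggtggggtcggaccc
The first base of the match lay at −33 in OCLN and at −7 in TJP3, counted from the start. RefSeq gives both genes a second start. The other OCLN window held matches at −133 and 35, and the other TJP3 window held none. CRB3, the small transmembrane protein of the Crumbs complex, held 5 matches, and the CLDN1 window held none. Over windows of 300 bases (250 before the start and 50 after it), 12 of the 22 members with a window held the letters in at least 1 window (54.5%), against 24.1% of all 27305 genes. Genes can have several windows, and by window 13 of 32 held the letters, against 20.6% of all 35116. Among members with a window, the letters were found in 2 of 3 called lower in treated spheroids, 0 of 3 called higher and 10 of 16 that were not called. PARD6B, LLGL2, PKP3, PPL and EPCAM, also called lower, had no window. A match describes the letters only.

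The first comparison, treated spheroids against control spheroids, asked how the cytokines changed these genes in the culture form used to study EMT. Occludin, tricellulin, ZO-3, PARD6B, LLGL2, plakophilin 3, periplakin and EPCAM were lower in treated spheroids, and claudins 1, 4 and 12 were higher. In the limma fit of all 8 arrays, at an adjusted p of 0.05, 3 of the 32 genes were called higher (9.38%) and 8 were called lower (25%). Over all 19775 genes, 5.53% were called higher and 10.8% lower. Among the 12661 genes that exceeded the array median on 2 or more arrays, 8.42% were called higher and 16.8% lower, and the 11 called members all belonged to that set. The median log2 fold-change of the 32 genes was −0.10, beside 0 over all genes. Over the 29 members that exceeded the array median it was −0.11, beside −0.12 over the 12661 genes of that kind. The 21 genes that were not called ranged between −2.43 and 1.32. With the 4 spheroid arrays fitted alone, limma called 3 members (OCLN, LLGL2 and PPL). With single arrays left out of the full fit, only CLDN1, OCLN, LLGL2 and PKP3 kept their call every time.

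**Figure D1:**
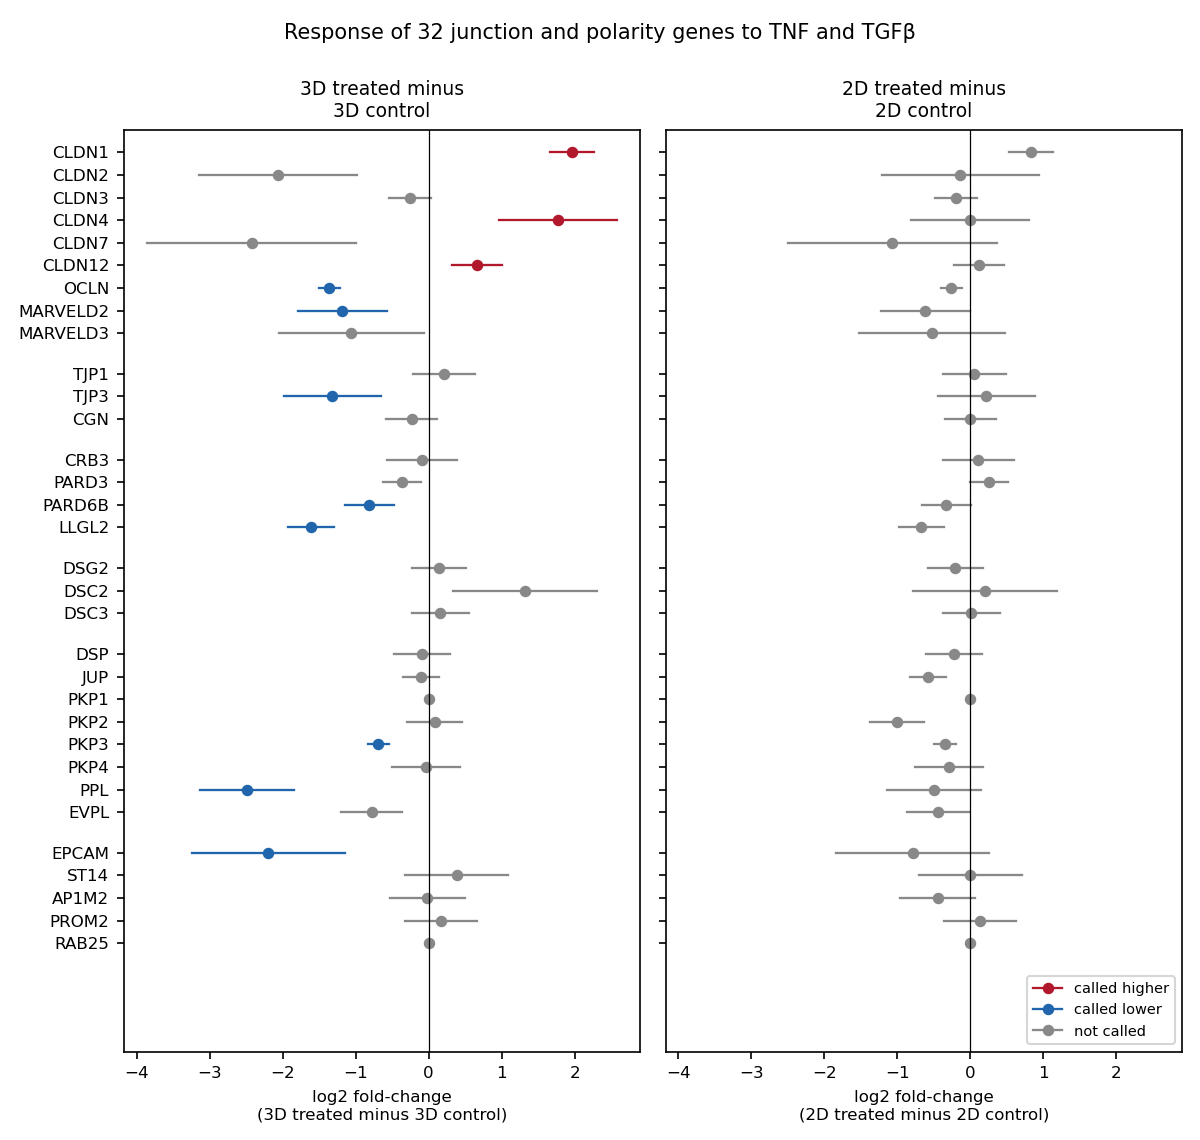
Log2 fold-change of the 32 genes in treated against control spheroids (left) and in treated against control monolayers (right), in order of role. Bars show the 95% interval of the limma fit. PKP1 and RAB25 hold 1 value on all arrays and have no bar on the left. Their interval on the right, −0.0015 to 0.0015, is not a measured spread. In spheroids 3 genes were called higher (red) and 8 lower (blue), and in monolayers none was called.

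The strand-forming and membrane proteins of the tight junction moved in both directions, with 3 of 9 called higher and 2 lower. Claudin 1 (CLDN1), a barrier-forming claudin, read 9.70 and 9.42 in treated spheroids, against 7.53 and 7.67 in control spheroids. Its log2 fold-change was 1.96 (standard error, SE, 0.11), a 3.89-fold higher level (limma adjusted p = 0.00382). Claudin 4 (CLDN4), another sealing claudin, read 6.05 and 5.17 in treated spheroids, against 3.85 and 3.83 in control spheroids. On the other 6 arrays of the series its values all lay between 3.82 and 3.85, so treated spheroids alone stood above a flat level. The log2 fold-change of CLDN4 was 1.77 (SE 0.30, limma adjusted p = 0.036), and its other probe set held 1 value on the spheroid arrays. Claudin 12 (CLDN12), which lacks the usual claudin tail for binding plaque proteins, read 11.44 and 11.62 in treated spheroids, against 10.88 and 10.85 in control spheroids. That is a log2 fold-change of 0.67 (SE 0.13, limma adjusted p = 0.0478). All 3 had treated arrays above both control arrays. With single arrays left out, CLDN1 remained called in all 8 fits. CLDN4 was not called in the 6 fits without a control spheroid, treated monolayer or control monolayer array (limma adjusted p 0.0911 to 0.143), and CLDN12 was not called in the 6 fits without a spheroid or control monolayer array (limma adjusted p 0.0791 to 0.181).

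Occludin and tricellulin, the MARVEL-domain proteins of the strands, were lower in treated spheroids. OCLN encodes occludin and read 7.44 and 7.35 in treated spheroids, against 8.73 and 8.78 in control spheroids. The log2 fold-change was −1.36 (SE 0.05), a 2.57-fold lower level and the smallest adjusted p among the 32 genes (limma adjusted p = 0.00208). A second OCLN probe set gave −1.18 (limma adjusted p = 0.0214), another gave −0.99 and was not called, and the last held the same value on all 4 spheroid arrays. MARVELD2, which encodes tricellulin at the corners where 3 cells meet, read 7.71 and 7.19 in treated spheroids, against 8.80 and 8.47 in control spheroids. Its log2 fold-change was −1.18 (SE 0.23, limma adjusted p = 0.0477). The OCLN call held in every alternative run, whereas MARVELD2 was called in only 1 of the 8 fits that left out an array, the one without treated spheroid replicate 1 (limma adjusted p 0.0981 to 0.175 in the others). MARVELD3, the other protein of that family, read 4.38 and 4.74 in treated spheroids, against 5.22 and 6.02 in control spheroids, and was not called (log2 fold-change −1.06, 95% interval −2.06 to −0.06).

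The remaining claudins were lower in treated spheroids in their values but did not pass the threshold. Claudin 2 (CLDN2), a pore-forming claudin that lets cations and water through, read 10.66 and 9.58 in treated spheroids, against 12.01 and 12.35 in control spheroids. Its log2 fold-change of −2.06 (SE 0.40) had a limma adjusted p of 0.0502. The limma adjusted p was 0.0398 with an intensity trend and 0.0426 with quantile normalization. CLDN2 was not called with the spheroid arrays fitted alone. Leaving out treated spheroid replicate 1 or replicate 2 gave log2 fold-changes of −2.60 and −1.52. Claudin 7 (CLDN7), found along the lateral membrane, read 3.02 and 3.59 in treated spheroids, against 5.68 and 5.78 in control spheroids. Its log2 fold-change was −2.43 (SE 0.53, 95% interval −3.86 to −0.99), and its limma adjusted p was 0.067. Claudin 3 (CLDN3) read 5.75 on both treated spheroid arrays, against 6.02 and 5.98 in control spheroids (log2 fold-change −0.25, 95% interval −0.54 to 0.04, limma adjusted p = 0.305). Its other probe set gave −0.95 (95% interval −1.79 to −0.11, limma adjusted p = 0.177).

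Of the 3 tight junction plaque genes, the smaller scaffold ZO-3 was lower and ZO-1 was not called. TJP3, which encodes ZO-3, read 6.17 and 6.87 in treated spheroids, against 7.84 on both control spheroid arrays. The log2 fold-change was −1.32 (SE 0.25, limma adjusted p = 0.0458), and its second probe set gave −1.37 (limma adjusted p = 0.0251). TJP1, which encodes ZO-1, the scaffold between claudins and actin, read 11.17 and 10.95 in treated spheroids, against 10.94 and 10.76 in control spheroids. Its log2 fold-change was 0.21 (95% interval −0.22 to 0.64, limma adjusted p = 0.575). TJP3 was not called in the 6 fits without a control spheroid, treated monolayer or control monolayer array (limma adjusted p 0.103 to 0.169). CGN, which encodes the plaque protein cingulin, lay at 2.25 on both treated spheroid arrays, against 2.29 and 2.68 in control spheroids, near the array median. The other arrays hold nearly 1 value for CGN. Its log2 fold-change was −0.43 without control spheroid replicate 1 and −0.04 without replicate 2.

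The polarity genes fell in 2 of 4 cases, in the Par complex and in the basolateral determinant that opposes it. LLGL2, a lethal giant larvae homologue that marks the lateral domain, read 5.94 and 5.86 in treated spheroids, against 7.47 and 7.55 in control spheroids. Its log2 fold-change was −1.61 (SE 0.12), a 3.06-fold lower level (limma adjusted p = 0.00599) that held in every alternative run. A dimmer second LLGL2 probe set gave −0.02 (limma adjusted p = 0.536). PARD6B, a Par complex adaptor of atypical protein kinase C, read 9.02 and 8.92 in treated spheroids, against 9.92 and 9.64 in control spheroids. That is a log2 fold-change of −0.81 (SE 0.12, limma adjusted p = 0.0276), and it was called in only 1 of the 8 fits that left out an array, the one without control spheroid replicate 2 (limma adjusted p 0.0635 to 0.0985 in the others). The other PARD6B probe sets gave 0.03 and 0, not called, with means over the 8 arrays of 2.27 and 2.23, at or near the lowest value. PARD3, the Par scaffold at the tight junction, had a log2 fold-change of −0.36 (95% interval −0.62 to −0.10, limma adjusted p = 0.106), with 10.16 and 10.26 in treated spheroids, against 10.63 and 10.51 in control spheroids. Its other probe sets gave −1.07 (95% interval −1.77 to −0.37, limma adjusted p = 0.0858), −0.46 and −0.05. CRB3 read 7.01 and 6.52 in treated spheroids, against 6.82 and 6.89 in control spheroids, so the arrays overlapped.

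In the desmosome, the plaque genes that changed were plakophilin 3 and periplakin, and no cadherin was called. PKP3, which encodes a plakophilin that clusters desmosomal cadherins, read 8.24 and 8.15 in treated spheroids, against 8.85 and 8.91 in control spheroids. The log2 fold-change was −0.69 (SE 0.05, limma adjusted p = 0.00723), and the second probe set gave −0.93 (limma adjusted p = 0.00605). PPL encodes periplakin, a plakin that ties keratin filaments to the membrane. It read 3.60 and 3.61 in treated spheroids, against 6.16 and 6.02 in control spheroids, and the 2 treated arrays nearly coincided. Its log2 fold-change was −2.49 (SE 0.24), a 5.61-fold lower level and the largest in size among the 32 genes (limma adjusted p = 0.0105), and without control spheroid replicate 1 the limma adjusted p was 0.0509. EVPL, which encodes its partner envoplakin, read 5.25 and 4.83 in treated spheroids, against 5.78 and 5.85 in control spheroids. With a log2 fold-change of −0.78 (95% interval −1.20 to −0.36) its limma adjusted p was 0.0533. Without treated spheroid replicate 1 or replicate 2 the log2 fold-change was −0.99 and −0.57.

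The core of the desmosome held no called gene in this comparison. DSP, which encodes desmoplakin, the link between the plaque and keratin, read 11.17 and 11.41 in treated spheroids, against 11.49 and 11.28 in control spheroids (log2 fold-change −0.09, 95% interval −0.47 to 0.29). JUP, which encodes plakoglobin, read 10.87 and 10.85 in treated spheroids, against 11.003 and 10.926 in control spheroids (log2 fold-change −0.11, 95% interval −0.35 to 0.14). The arrays of the groups overlapped for DSP and lay narrowly apart for JUP. Among the cadherins, DSG2 (desmoglein 2) read 12.34 and 11.96 in treated spheroids, against 12.01 on both control spheroid arrays (log2 fold-change 0.14, 95% interval −0.23 to 0.51). DSC2 (desmocollin 2) read 7.99 and 6.96 in treated spheroids, against 6.02 and 6.30 in control spheroids, with a log2 fold-change of 1.32 (SE 0.36, limma adjusted p = 0.118). Without single arrays the log2 fold-change ranged from 0.80 to 1.84. The probe sets of DSC2 differed in call. One of the other DSC2 probe sets gave 1.55 (limma adjusted p = 0.000113), a further one 0.08 (limma adjusted p = 0.047), and another 0.31 (limma adjusted p = 0.536). Their means over the 8 arrays were 2.84, 2.25 and 2.32, near the lowest value of 2.23, where shared floor values keep the spread small. DSC3 (desmocollin 3) lay near the array median, at 2.75 and 2.37 in treated spheroids and 2.49 and 2.30 in control spheroids. PKP2, a plakophilin of simple epithelium, had a log2 fold-change of 0.08 (95% interval −0.29 to 0.46), and PKP4 was not called.

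EPCAM was the called member of the epithelial surface and sorting genes. EPCAM, an epithelial adhesion molecule known to bind claudin 7, read 6.49 and 5.75 in treated spheroids, against 8.36 and 8.28 in control spheroids. The log2 fold-change was −2.20 (SE 0.39), a 4.59-fold lower level (limma adjusted p = 0.0402). EPCAM was called in only 1 of the 8 fits that left out an array, the one without treated spheroid replicate 1 (limma adjusted p 0.0675 to 0.156 in the others). AP1M2, the adaptor subunit that sorts proteins to the basolateral membrane, and PROM2, a protein of apical protrusions, were not called. ST14, which encodes the membrane protease matriptase, read 2.93 on 7 of the 8 arrays and 3.70 on treated spheroid replicate 2. Without treated spheroid replicate 1 its log2 fold-change was 0.77, which rests on the single value of 3.70.

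**Figure D2:**
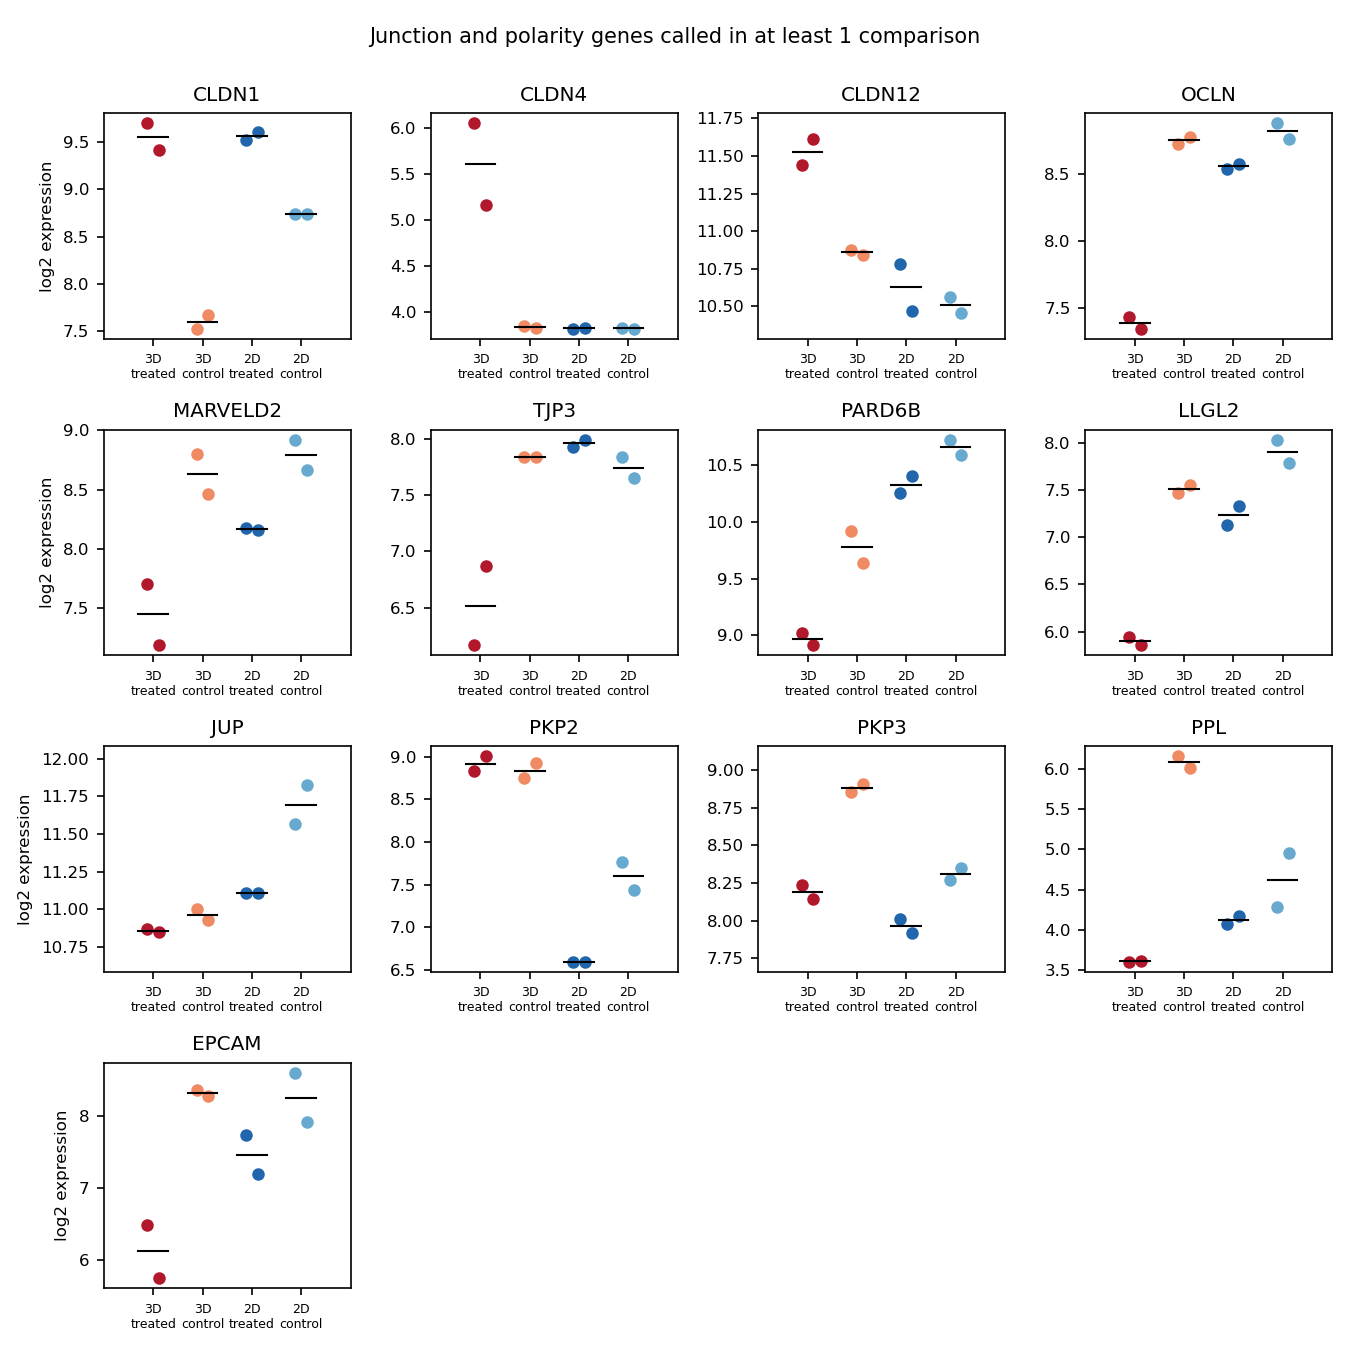
Log2 expression of the 13 genes called in at least 1 comparison, in treated and control spheroids (3D) and treated and control monolayers (2D). Points are single arrays, lines are means of 2 arrays, and each panel has its own vertical axis that does not start at 0. CLDN4 is at 6.05 and 5.17 in treated spheroids and between 3.82 and 3.85 elsewhere, and PPL is highest in control spheroids.

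The second comparison set treated monolayers against control monolayers. No member was called (limma, 0 of 32), and 8 had an unadjusted p under 0.05, 1 of them higher and 7 lower. The share of all genes at that unadjusted p was not counted, so the 8 are no result about the members as a set. Few genes were called at all, 0.121% of the 19775 genes higher and 0.0759% lower. The median log2 fold-change of the 32 genes was −0.20, beside 0 over all genes, and that of the 29 genes above the array median was −0.22, beside −0.01 over the 12661 genes of that kind.

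CLDN1 was the single gene with an unadjusted p under 0.05 in the higher direction. It read 9.52 and 9.60 in treated monolayers, against 8.73 and 8.74 in control monolayers, a log2 fold-change of 0.83 (95% interval 0.53 to 1.13, limma adjusted p = 0.136). The treated monolayer values of CLDN1 lay between those of the 2 treated spheroid arrays, whereas the control values of the culture forms lay apart. PKP2 read 6.60 on both treated monolayer arrays, against 7.77 and 7.44 in control monolayers, a log2 fold-change of −1.01 (95% interval −1.38 to −0.63, limma adjusted p = 0.144). JUP read 11.11 on both treated monolayer arrays, against 11.56 and 11.82 in control monolayers (log2 fold-change −0.59, limma adjusted p = 0.175). Without control monolayer replicate 1 or replicate 2, the log2 fold-change of JUP was −0.72 and −0.46. Without replicate 1 that of PPL was −0.84. The other lower values belonged to LLGL2 (−0.67, 95% interval −0.98 to −0.36), MARVELD2 (−0.62), EVPL (−0.45), PKP3 (−0.35) and OCLN (−0.26, 95% interval −0.41 to −0.11). Other OCLN probe sets gave 0.16, 0.02 and −0.04, and second probe sets of PKP3 and PKP2 gave −0.06 and 0.03. Those of LLGL2 and MARVELD2 gave −0.20 and −0.31, and none of these was called.

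Several of the genes that separated the spheroid groups had wide intervals in monolayers. EPCAM read 7.73 and 7.20 in treated monolayers, against 8.60 and 7.91 in control monolayers (log2 fold-change −0.79, 95% interval −1.84 to 0.26). CLDN7 read 4.33 and 3.59 in treated monolayers, against 5.66 and 4.41 in control monolayers (log2 fold-change −1.07, 95% interval −2.50 to 0.36). PPL read 4.07 and 4.17 in treated monolayers, against 4.28 and 4.96 in control monolayers (log2 fold-change −0.50, 95% interval −1.15 to 0.14). All 3 intervals reach both 0 and changes of more than 2-fold. TJP1 and DSP had log2 fold-changes of 0.05 (95% interval −0.37 to 0.48) and −0.22 (95% interval −0.60 to 0.16).

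Whether the response differed between culture forms was tested directly, as the spheroid response minus the monolayer response. OCLN was the 1 member called, and it was called lower, beside 1.94% of all genes called lower and 1.32% called higher. The OCLN difference was −1.10 (SE 0.08, 95% interval −1.31 to −0.89, limma adjusted p = 0.0145), made of a response of −1.36 in spheroids and −0.26 in monolayers. The call was lost in 1 of 15 alternatives run. The other OCLN probe sets gave −1.34 (limma adjusted p = 0.077), −1.01 and 0.04, none called. Another 12 members had an unadjusted p under 0.05 without being called, again with no share over all genes counted. These included CLDN1 (1.13, limma adjusted p = 0.0555), LLGL2 (−0.94, limma adjusted p = 0.0807), PPL (−1.99, limma adjusted p = 0.0779) and PKP2 (1.09, limma adjusted p = 0.0862). PKP2 had a log2 fold-change of 0.08 in spheroids and −1.01 in monolayers. PKP3 had a difference of −0.34 that was not called, and its second probe set gave −0.87 (limma adjusted p = 0.0359). A second LLGL2 probe set gave 0.18 (limma adjusted p = 0.0396), against the sign of the brighter one. A second DSC2 probe set, with a mean of 2.84 over the 8 arrays, near the floor, gave 1.53 (limma adjusted p = 0.00045). For CLDN4 and TJP3 the differences were 1.77 (95% interval 0.63 to 2.91) and −1.54 (95% interval −2.48 to −0.59), neither called. Except for OCLN, the calls in spheroids are therefore not shown to differ from the monolayer values. The count of calls depended on single arrays. A fit without 1 array leaves its group no spread of its own, so added calls there are no support.

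The last comparison, control spheroids against control monolayers, described the culture forms before any cytokine. Plakophilins 2 and 3 and periplakin were higher in control spheroids, and claudin 1, PARD6B and plakoglobin were lower. limma called 3 of 32 members higher and 3 lower (9.38% each), beside 5.77% of all genes called higher and 4.9% lower, and the median was 0.01. The control spheroids are also the controls of the first comparison, so an array that reads high or low there enters both. With single arrays left out, every one of these calls was lost in at least 1 fit. With the 4 control arrays fitted alone, limma called 0. CGN had a difference of 0.43 without control spheroid replicate 1 and 0.04 without replicate 2.

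**Figure D3:**
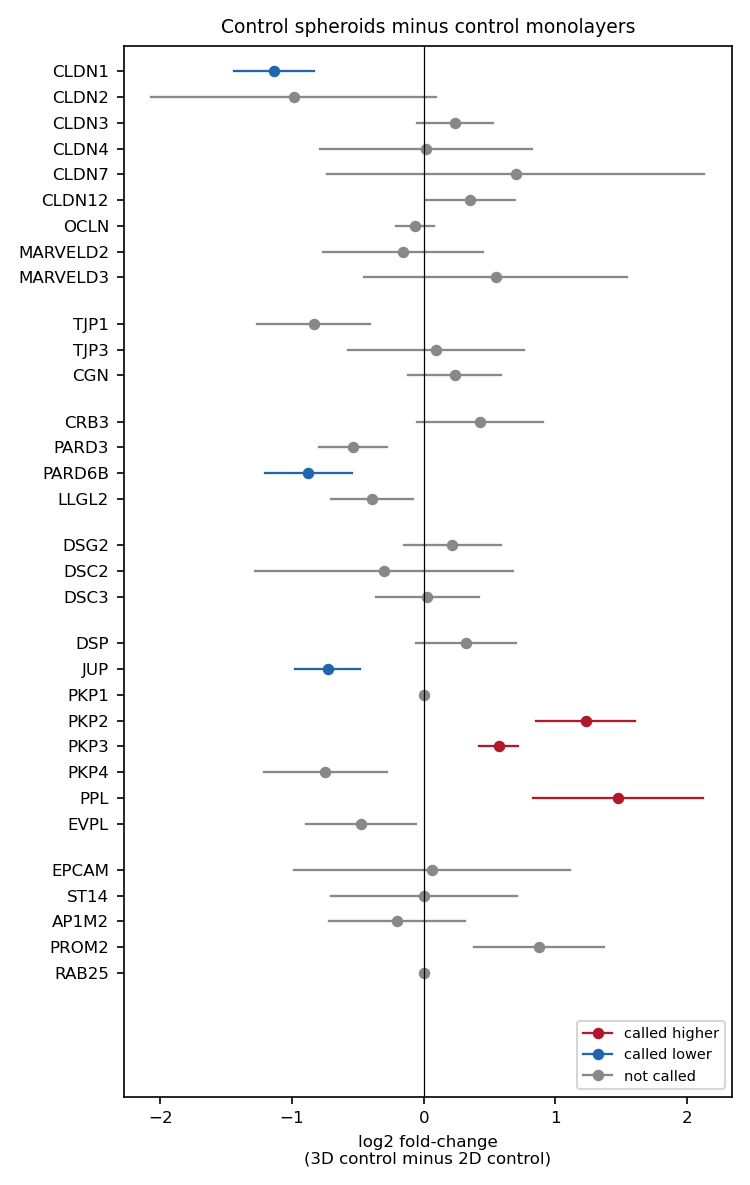
Log2 fold-change of the 32 genes in control spheroids against control monolayers, in order of role, with bars for the 95% interval of the limma fit. PKP2, PKP3 and PPL (red) were called higher in control spheroids, and CLDN1, PARD6B and JUP (blue) were called lower.

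The higher genes were 3 of the 8 of the desmosomal plaque. PKP2 read 8.75 and 8.93 in control spheroids, against 7.77 and 7.44 in control monolayers (log2 fold-change 1.23, SE 0.14, limma adjusted p = 0.0222). PPL read 6.16 and 6.02 in control spheroids, against 4.28 and 4.96 in control monolayers (log2 fold-change 1.47, SE 0.24, limma adjusted p = 0.0428). PKP3 read 8.85 and 8.91 in control spheroids, against 8.27 and 8.35 in control monolayers (log2 fold-change 0.57, SE 0.05, limma adjusted p = 0.0172). For all 3 the arrays of the groups lay apart, and the second PKP2 probe set gave 0.27 (limma adjusted p = 0.162). PPL and PKP3 thus had their highest values in control spheroids among the 4 groups. The PKP2 and PPL calls were lost in the 6 fits without a spheroid or treated monolayer array (limma adjusted p 0.0527 to 0.0826 for PKP2 and up to 0.149 for PPL), and the PKP3 call was lost without control spheroid replicate 2 (limma adjusted p = 0.0641).

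The lower genes were spread over 3 roles. CLDN1 read 7.53 and 7.67 in control spheroids, against 8.73 and 8.74 in control monolayers (log2 fold-change −1.14, SE 0.11, limma adjusted p = 0.0178). PARD6B read 9.92 and 9.64 in control spheroids, against 10.72 and 10.59 in control monolayers (log2 fold-change −0.88, SE 0.12, limma adjusted p = 0.0323). JUP read 11.003 and 10.926 in control spheroids, against 11.56 and 11.82 in control monolayers (log2 fold-change −0.73, SE 0.09, limma adjusted p = 0.0264). In each the groups lay apart. CLDN1 lost its call without either control monolayer array or control spheroid replicate 1 (limma adjusted p 0.0529 to 0.0653), JUP in the 6 fits without a spheroid or treated monolayer array (limma adjusted p 0.0683 to 0.106), and PARD6B in all of the 8 fits but the one without control spheroid replicate 1 (limma adjusted p 0.0694 to 0.10). TJP1 (−0.84, limma adjusted p = 0.0597), PARD3 (−0.54, limma adjusted p = 0.0511) and PKP4 (−0.75, limma adjusted p = 0.0914) had lower values that were not called, and PROM2 had a higher one (0.87, limma adjusted p = 0.0739). Other probe sets differed from these, with a PKP4 probe set called lower (−0.99, limma adjusted p = 0.0321), a TJP1 probe set at −0.16 (limma adjusted p = 0.91) and an LLGL2 probe set called lower (−0.20, limma adjusted p = 0.0108) beside −0.39 for the brighter one, not called. OCLN and EPCAM had differences of −0.07 (95% interval −0.21 to 0.08) and 0.06 (95% interval −0.99 to 1.11), and a second OCLN probe set gave 0.84 (95% interval 0.40 to 1.27, limma adjusted p = 0.0605).

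A longer list of 39 other junction and polarity genes, of which 36 were measured, was read from the same fit for comparison. It holds the other claudins, tight junction adhesion and plaque genes, the remaining polarity genes and the remaining desmosomal genes. In treated against control spheroids, limma called 1 higher and 0 lower, beside the 5.53% and 10.8% of all genes. The median log2 fold-change was 0, but 15 of the 36 lay below the array median in all 4 groups, and over the other 21 it was −0.11. The called gene was CLDN14, a claudin of the inner ear and kidney, which read 7.42 and 7.02 in treated spheroids, against 2.82 on both control spheroid arrays (log2 fold-change 4.40, SE 0.14, limma adjusted p = 0.00127). It also read 2.82 or 2.81 on all 4 monolayer arrays, and such shared values keep the spread small. None of the 36 was called between treated and control monolayers (limma). JAM3, a junctional adhesion molecule, was lower in control spheroids, at 4.60 and 4.56, against 5.62 and 5.38 in control monolayers (log2 fold-change −0.92, limma adjusted p = 0.0264). JAM3 lost its call in 7 of the 8 fits that left out an array, all but the one without control monolayer replicate 2 (limma adjusted p 0.0549 to 0.107). In these bulk arrays, fewer cells that express a gene and less RNA per cell cannot be told apart.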

How the data were processed

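RNA of A549 cultures was hybridised to 8 Affymetrix U133 plus 2.0 arrays, 2 per group. The authors deposited log2 values that came out of GCRMA (version not given in the sources used here), which corrects background, normalizes between arrays and summarizes probes, so that weak probe sets share floor values. The submitters' processing notes also name limma 3.6.9. No array was scaled further here. Of 54675 probe sets, 62 Affymetrix controls were left out. Probe sets naming several genes (1801) or none (11721) represent no gene here. Symbols follow the platform annotation.

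The linear model gave each group its own mean over all 8 arrays (limma 3.58.1 under R 4.3.3, lmFit with eBayes, 4 residual degrees of freedom) and tested by 4 contrasts, with Benjamini-Hochberg adjustment over 54613 probe sets. Adjusted p-values under 0.05 were called. The fit was run on simulated data with known changes, as a check of the code only, and the outcome is not reported here. The 29 genes above the array median exceeded it on 2 or more arrays. Figures used matplotlib 3.10.9 in Python 3.11.15.

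The members and lists were chosen with earlier results of these data known. Values on each array are given for called members, and CLDN1, CLDN3, CLDN4, CLDN7, OCLN, TJP1, DSP, JUP and EPCAM are always described. The other members described by value, and CLDN14, JAM3 and CD14, were named after their values were seen. Each alternative changed 1 choice: quantile normalization, centring of arrays on their medians, a prior variance that follows intensity, removal of dim probe sets, other rules for the probe set of a gene, the replicate number as a block, the 4 arrays of a comparison alone and leaving out each array. The number of arrays limits the precision.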

Additional observations from a re-analysis of the deposited data

Results flagged for a closer look

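The cytokine response of OCLN differed between culture forms by a test of the difference itself. The spheroid response minus the monolayer response was −1.10 (limma adjusted p = 0.0145), with responses of −1.36 in spheroids and −0.26 in monolayers. The call was lost in 1 of 15 alternatives. Other OCLN probe sets gave monolayer responses of 0.16, 0.02 and −0.04, and differences of −1.34, −1.01 and 0.04, none called.

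CLDN14, outside the 32 genes, differed in the same test. It read 2.82 or 2.81 on all arrays outside treated spheroids, and such shared values keep the spread small. Its spheroid response minus its monolayer response was 4.39 (SE 0.19, limma adjusted p = 0.00583). It was called in each of the alternatives run, and leaving out 1 array moved the difference between 4.19 and 4.59.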

How the results depend on the processing

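Of 11 calls between treated and control spheroids, taken through 16 alternatives each, 122 of 176 values kept their call, 54 lost it and 0 changed sign. OCLN and LLGL2 kept theirs throughout. The count of 11 became 7 (1 higher and 6 lower) with the replicate number as a block, 3 with the 4 arrays of the comparison alone, and 5 to 12 without single arrays. The other settings gave 10 to 16, and quantile normalization lost CLDN12 (limma adjusted p = 0.0607) and TJP3 (limma adjusted p = 0.0735). Some counts, also those without single arrays, hold genes that the full fit did not call. With array medians subtracted these were CLDN2, CLDN7, EVPL and PARD3 (limma adjusted p 0.0271 to 0.0469). The count of 0 between monolayers became 2 with the filter on dim probe sets (CLDN1 and PKP2) and 0 to 2 without single arrays. The count of 1 for the difference between responses became 2 with an intensity trend, quantile normalization or adjustment over 1 probe set per gene, 3 with the probe set of largest change in spheroids, 4 with array medians subtracted, 8 with the filter on dim probe sets and 1 to 6 without single arrays. With fewer probe sets tested, the adjustment is milder by construction. The count of 6 between control spheroids and control monolayers became 10 with that filter, 0 with the 4 arrays alone and 2 to 4 without single arrays.

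The deviations of replicate 1 from its group mean, over 28188 probe sets, correlated at 0.28 between treated and control monolayers. Between other groups these deviations correlated at −0.01 to 0.09, so the numbers were not taken as pairs. With the replicate block, OCLN lost its call for the difference between responses (limma adjusted p = 0.0518, count 0), all 6 calls between control spheroids and control monolayers were lost (count 0), and the monolayer count stayed 0. The cause was not tested.

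Of 1717 values of uncalled genes under the alternatives, 60 had the other sign, none of them called. Among genes whose fold-change is given above, 10 did. In treated against control spheroids these were DSP (0.0165 without control replicate 1, 0.03 without treated replicate 1, range −0.2093 to 0.03), DSG2 (−0.0512 without treated replicate 1, range −0.0512 to 0.3311), PKP2 (−0.0079 without control replicate 1, −0.0052 without treated replicate 2, up to 0.1694) and ST14 (−0.0001 without treated replicate 2, up to 0.7729). In monolayers they were PKP2 (0.0297 with the probe set of largest change in spheroids) and TJP1 (−0.0428 without control replicate 1, −0.1073 without treated replicate 2, up to 0.2164). For EPCAM the difference between control spheroids and control monolayers was −0.2846 without control monolayer replicate 2 (up to 0.405). Without 1 array of a group, its other array was taken to vary as the full groups do. The spread of that group then leaves the fit, so a smaller p-value there adds no evidence.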
